A study of Homo sapiens with 10 samples.

Results

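Peaks of accessible chromatin just downstream of genes were the rows of the deposited peak list that its annotation labels as downstream, in 3 distance classes of less than 1 kb, 1 to 2 kb and 2 to 3 kb. They numbered 1990 of 161934 peaks (1.23%, 95% Wilson interval 1.18 to 1.28) and covered 1.17% of all bases in peaks. The peaks came from ATAC-seq, in which the transposase Tn5 cuts open DNA and tags it for sequencing, in MDA-MB-231, a long-established cell line from a human triple-negative breast cancer. One group held 5 control libraries and the other 5 ARID1A knockout libraries, numbered 1 to 5 in each, and the labels name no further allele, clone or treatment. ARID1A belongs to SWI/SNF, a complex that moves and evicts nucleosomes, and contacts DNA there. The labels do not say whether the libraries came from separate cultures. The list is 1 for all 10 libraries and has 0 columns with a value per library, so depth is unknown and the effect of the knockout was not measured.

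Transcription does not stop where the messenger RNA ends. RNA polymerase II runs past the polyadenylation site, the transcript is cut there, and the polymerase is released some way downstream. The next gene may lie in tandem, so that its start follows, or in convergent orientation, so that its own end comes first. Open chromatin past a gene end can also belong to an enhancer or to the start of an unannotated or antisense transcript, and position alone does not separate these.

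The label was checked first against gene ends, and it held for the ends of 1 strand. All 1605 peaks labelled neither as promoter nor as part of a gene that lay within 3000 bases past the end of a minus-strand transcript of the list, and of no plus-strand one, were labelled downstream. Of the 1620 that lay as close past a plus-strand end only, 18 (1.11%, interval 0.704 to 1.75) were labelled downstream and 1602 distal intergenic. Where ends of both strands lay within reach, all 140 peaks were labelled downstream. The transcripts of the list were split evenly, 34210 on the minus and 34261 on the plus strand, so the class as labelled holds peaks just downstream of minus-strand genes and leaves their plus-strand counterparts under another label. With RefSeq ends added, 1703 downstream peaks had minus-strand ends only, 201 had both, 6 had plus-strand ends only and 80 had none. The tool that assigned the labels is not given in the sources used here, and the source of the strand difference was not tested.

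**Figure D1:**
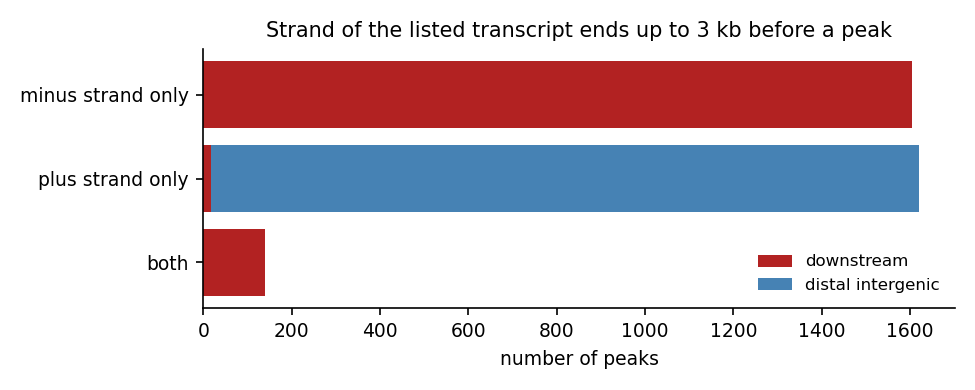
Number of peaks (x axis) labelled downstream (red) or distal intergenic (blue), by the strand of the listed transcript ends lying up to 3 kb before the peak (y axis). The 1605 peaks past minus-strand ends are all red, and 1602 of the 1620 past plus-strand ends are blue.

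A few downstream peaks met the window around a RefSeq start. Since no downstream peak lay within 3000 bases of a listed start, the label itself keeps this number low. The 300-base windows around RefSeq gene starts (250 bases before to 50 after, GRCh38.p14, the hg38 build) met 8 of the 1990 peaks, 7 peaks held the start itself, and 5 held a whole window. None of the 1562 RefSeq miRNA hairpins overlapped a downstream peak. That overlap was not counted over all peaks, so no trait of the class is read from it. All 8 starts belonged to long non-coding RNAs, and a start that the list names could not be among them. Below are 4 of the 5 whole windows, shown because they hold the letters of 2 motifs and fall into a CpG-rich and a CpG-poor pair. Capitals mark the GC box GGGCGG, which Sp-family factors bind, on either strand (CCGCCC on the other), and the AP-1 pattern TGANTCA. The site of FOS and JUN proteins has C or G in the middle of this pattern. Any middle base was counted here, and the pattern reads the same on both strands. Each is written 5′ to 3′ on the strand of its RNA.

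LOC105376859: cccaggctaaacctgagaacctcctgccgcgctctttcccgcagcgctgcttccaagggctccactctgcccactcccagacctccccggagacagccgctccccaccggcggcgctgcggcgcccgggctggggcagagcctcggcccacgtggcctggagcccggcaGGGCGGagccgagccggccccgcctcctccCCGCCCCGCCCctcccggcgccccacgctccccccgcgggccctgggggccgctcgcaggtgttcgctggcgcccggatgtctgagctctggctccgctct
LOC124905136: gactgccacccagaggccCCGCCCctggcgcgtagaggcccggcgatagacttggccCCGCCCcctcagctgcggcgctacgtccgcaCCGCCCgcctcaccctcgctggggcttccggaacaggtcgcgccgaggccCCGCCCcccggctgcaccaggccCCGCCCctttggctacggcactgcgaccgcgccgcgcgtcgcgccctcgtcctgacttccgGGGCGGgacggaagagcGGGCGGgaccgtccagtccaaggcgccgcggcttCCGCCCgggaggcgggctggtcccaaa
LOC105375061: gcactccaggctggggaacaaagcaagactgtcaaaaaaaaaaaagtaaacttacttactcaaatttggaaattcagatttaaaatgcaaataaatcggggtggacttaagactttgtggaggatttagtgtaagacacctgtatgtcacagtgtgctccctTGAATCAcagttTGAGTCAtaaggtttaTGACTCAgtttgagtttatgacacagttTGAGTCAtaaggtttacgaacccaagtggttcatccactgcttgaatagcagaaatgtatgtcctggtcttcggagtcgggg
LOC107985670: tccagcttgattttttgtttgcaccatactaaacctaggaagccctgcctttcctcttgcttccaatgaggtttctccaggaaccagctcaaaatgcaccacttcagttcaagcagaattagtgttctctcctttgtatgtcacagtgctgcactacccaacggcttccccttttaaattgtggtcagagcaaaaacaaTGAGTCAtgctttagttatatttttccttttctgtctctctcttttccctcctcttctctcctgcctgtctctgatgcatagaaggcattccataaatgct

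The first window (chr1:23554893-23555192, minus strand) lay in an 829-base peak that began 2647 bases past the end of ID3, which encodes an inhibitor of basic helix-loop-helix factors. It held 3 GC boxes, of which a pair share a base, and 32 CpG, with 77% G or C. The window of LOC124905136 (chr22:46035860-46036159, plus strand) lay in a 1491-base peak that began 2756 bases past the end of the non-coding gene LINC00899, and held 8 GC boxes and 42 CpG. These are the CpG-rich pair: over all 34943 RefSeq windows the median was 14 CpG and 58.7% G or C, and 44.9% held a GC box.

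The window of LOC105375061 (chr6:42224489-42224788, plus strand) lay in a 582-base peak that began 130 bases past the end of TRERF1, a zinc-finger transcription regulator. It held the AP-1 pattern 4 times, at bases 163, 175, 191 and 219 of the sequence, with 4 CpG and 40% G or C. The stretch at base 163 has A in the middle, and the others have C or G. The window of LOC107985670 (chrX:78653209-78653508, plus strand) lay in an 843-base peak that began 2139 bases past the end of RTL3, a gene derived from a retrotransposon, and held 1 AP-1 site at base 200 and 1 CpG. The AP-1 pattern, with any middle base, was present in 7.72% of all windows. The letters describe these windows and do not show that a factor was bound.

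The distance classes were of similar size. The class under 1 kb held 659 peaks (33.1%, interval 31.1 to 35.2), that of 1 to 2 kb 607 (30.5%, 28.5 to 32.6) and that of 2 to 3 kb 724 (36.4%, 34.3 to 38.5). The last was thus the largest and the middle one the smallest, with intervals that did not overlap. Measured to the nearest minus-strand end in the list or in RefSeq, 1904 of the 1990 peaks had an end within 3000 bases before them, and 1852 (93.1%) had one at a distance inside their own class. Plus-strand ends gave the stated class for 79 peaks (3.97%). Of the 140 peaks with listed ends of both strands, the minus-strand ends gave the class in 132, although a plus-strand end was the nearer one in 63.

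The edge of the class was sharp. Only peaks labelled neither as promoter nor as part of a gene are counted here. Between 2901 and 3000 bases past a minus-strand end, 64 of 64 such peaks were labelled downstream, with a median length of 537 bases. Between 3001 and 3100 bases the label was given to 4 of 72, and their median length was 599.5 bases. The difference in length across the limit was small beside the quartiles of the class, 349 and 785.5 bases.

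The transcript named on a peak's own row was often not the one whose end the peak followed. It is the transcript with the nearest start, and for 441 peaks (22.2%) it began beyond the peak, so that the peak lay upstream of it, at a median of 8637 bases. For the other 1549 (77.8%) the peak lay past its end, at a median of 2703 bases (quartiles 1723 and 4790, range 1 to 254012), and for 632 of these past 3000 bases. The distance computed from the row's own start, end and strand fell in the stated class for 735 peaks (36.9%), against 1852 with any minus-strand end. Gene names below are therefore those of the gene whose minus-strand RefSeq end the peak followed.

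At the near extreme by the row's own transcript, a 291-base peak began 1 base past LINC01290, a long non-coding RNA. The next were an 854-base peak 17 bases past NUAK2, a kinase gene that responds to YAP, and a 448-base peak 19 bases past JMJD1C, which encodes a Jumonji-domain protein. At the far extreme the named transcript had little to do with the label. A peak of 552 bases on chromosome 9 began 2239 bases past a listed end of ANKS6, an ankyrin-repeat gene, but its row named a transcript of another gene, whose start lay 19342 and whose end 440457 bases away. For the other two, on chromosomes 4 and 6, the end of the named transcript lay 467917 and 584543 bases away.

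Around protein-coding genes the change of label followed the strand. Between 500 and 1000 bases past the end, minus-strand genes had 2.23 downstream and 0.151 distal intergenic peaks per 100 genes, and plus-strand genes had 0.231 and 1.95. From 3500 to 4000 bases the minus-strand values were 0.141 downstream and 1.98 distal intergenic, so the labels exchanged places at about 3 kb. The density of 3' UTR peaks was lower past the end than before it on both strands. From 500 to 1000 bases before the end it was 1.76 per 100 genes on the minus and 1.81 on the plus strand. In the first 500 bases past the end it was 0.886 and 0.620, and from 500 to 1000 bases 0.335 and 0.336. Of 3612 peaks within 3000 bases past a minus-strand protein-coding end, 33.4% were downstream, 51.1% promoter and 2.41% distal intergenic. Of 3785 past plus-strand ends, 3.96%, 49.2% and 32.9% had these labels.

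**Figure D2:**
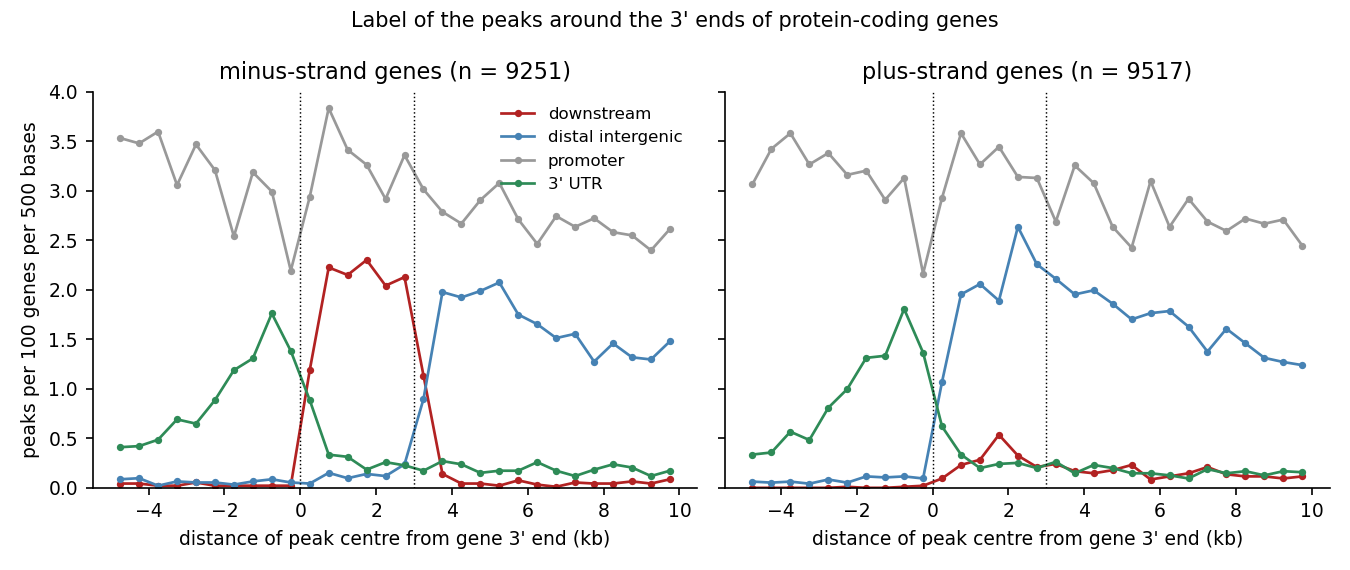
Peaks per 100 protein-coding genes in bins of 500 bases (y axis) against distance of the peak centre from the gene's 3' end in kb (x axis), for minus-strand (left) and plus-strand genes (right) (dotted lines mark the end and 3 kb past it). Downstream peaks (red) reach 2.23 between 500 and 1000 bases on the left, where distal intergenic peaks (blue) are at 0.151, and on the right the order is the reverse.

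Apart from the label, peaks past ends of the 2 strands were alike in length, gap, distance to a start and share with a promoter peak. The orientation of the next gene, given below, was not alike between all downstream peaks and the plus-strand counterparts. The 1605 downstream peaks with minus-strand ends only had a median length of 536 bases, and the 1602 distal intergenic peaks past plus-strand ends had 540. Peaks of 1000 bases or more made up 13.3% (11.7 to 15.0) and 15.0% (13.3 to 16.8). The median gap to the end was 1660 and 1712 bases, and the median distance to the nearest listed start 6955 and 6831.5 bases. The gene on the row had a promoter peak in 73.6% (71.4 to 75.7) and 72.2% (69.9 to 74.3). The intervals of each of these shares overlapped between the strands. Taking both sets of labels, 3592 peaks (2.22%, 2.15 to 2.29) lay just downstream of a gene or carried that label.

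Downstream peaks had a median length near that of the list, but fewer of them were long. Their median was 529.5 bases (quartiles 349 and 785.5, range 132 to 3050), beside 539 for all peaks (quartiles 346 and 843). Of downstream peaks 260 (13.1%, 11.7 to 14.6) reached 1000 bases and 20 reached 2000. Among all peaks 16.9% (16.7 to 17.1) reached 1000 bases, and the intervals did not overlap. The class under 1 kb had a median of 557 bases, that of 1 to 2 kb 526 and that of 2 to 3 kb 513.5. Peaks of 1000 bases or more made up 15.6% (13.1 to 18.6), 11.5% (9.23 to 14.3) and 12.0% (9.85 to 14.6) of the classes, and these intervals overlapped. The medians of 3' UTR and distal intergenic peaks, 536 and 506 bases, lay on either side, and promoter peaks had 683. Of promoter peaks 30.5% (30.1 to 30.9) reached 1000 bases.

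**Figure D3:**
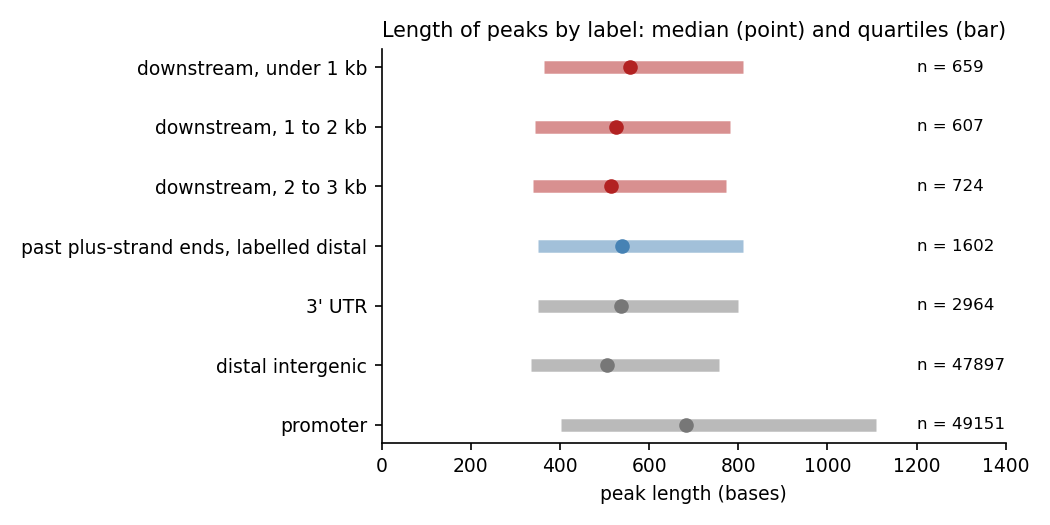
Median (point) and quartiles (bar) of peak length in bases (x axis) for each label (y axis), with the number of peaks at the right. The 3 downstream classes have medians of 513.5 to 557 bases, between distal intergenic peaks at 506 and promoter peaks at 683.

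Most of the 10 longest downstream peaks followed protein-coding genes. So did 1202 of the 1431 downstream peaks within 3000 bases past a RefSeq minus-strand end. The longest, 3050 bases (hg38 chromosome 14, 68784438 to 68787487), began 168 bases past the end of ZFP36L1, which encodes an RNA-binding protein that destabilises AU-rich messenger RNAs. The gene also had a start peak, which here means a peak within 1000 bases of its 5' end, and 5 peaks in its body. A 2953-base peak on chromosome 19 (3469469 to 3472421) began 1565 bases past SMIM24, a small membrane protein, and a plus-strand end lay 252 bases from its other edge. Its class, 1 to 2 kb, was that of the minus-strand end. CCK, the gene of the gut and brain hormone cholecystokinin, had a 2602-base peak 580 bases past its end and no start peak.

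Next in length was a peak of 2548 bases 1236 bases past H3-3B, which encodes the replication-independent histone H3.3. PTTG1IP, a membrane protein that binds securin, had one of 2503 bases 1482 bases past its nearest listed end, and ITGB2, the leukocyte integrin beta subunit and its neighbour on chromosome 21, one of 2203 bases at 2682 bases. RIN1, an effector of RAS, had a peak of 2401 bases at 1438 bases, and RRBP1, a ribosome-binding protein of the endoplasmic reticulum, one of 2199 bases at 719 bases. The other two were a 2469-base peak 280 bases past LINC00910 and a 2342-base peak past ENSG00000258383, which RefSeq did not pair with a symbol. All the protein-coding genes among these except CCK had a start peak, as did 73.8% of all minus-strand genes, and CCK had 1 peak in its body.

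Of 9251 protein-coding genes on the minus strand, 1033 (11.2%) had at least 1 downstream peak past their own end. Of 9517 on the plus strand, 1075 (11.3%) had a distal intergenic peak in the same place. On the minus strand 879 genes had 1 such peak, 140 had 2, 13 had 3 and 1 had 4; on the plus strand the numbers were 920, 141, 13 and 1. Non-coding RNA genes took 229 further downstream peaks, at 211 genes.

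CYP26B1, which encodes an enzyme that degrades retinoic acid, was the gene with 4 downstream peaks. They were short, at 172, 347, 330 and 359 bases, and began 171, 861, 1325 and 2869 bases past its end (chromosome 2, between 72126011 and 72129067). AQP7, an aquaglyceroporin, had peaks of 348, 592 and 1117 bases at 397, 1519 and 2217 bases past its end. VEZF1, a zinc-finger factor of vascular development, had 2 peaks of 962 and 859 bases separated by 32 bases, and 1 more of 382 bases. RWDD4 had peaks of 1068, 282 and 316 bases, for which the row named a different gene, ENSG00000252157, ending 14459 to 16351 bases away. ANKRD40CL had peaks of 453, 732 and 1194 bases, at 279, 1596 and 2951 bases.

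**Figure D4:**
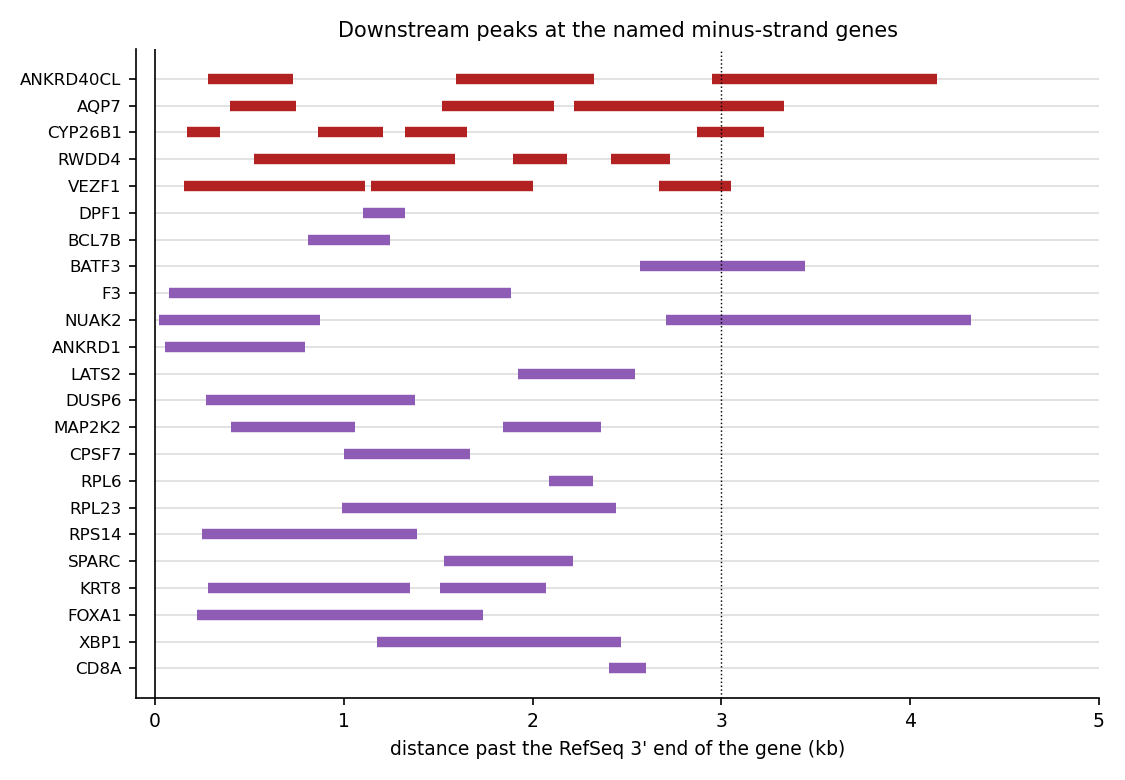
Position of downstream peaks (bars) past the RefSeq 3' end of their gene in kb (x axis) for the 5 genes chosen for their number of peaks (red) and for 18 genes of the gene lists (purple). The 4 peaks of CYP26B1 are short, and the line at 3 kb marks the limit for where a peak may begin, which peaks such as that of NUAK2 run past.

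Genes with a downstream peak more often had a peak at the other end too. A start peak was present in 81.2% (78.7 to 83.5) of the 1033 minus-strand genes with a downstream peak and in 72.8% (71.9 to 73.8) of the 8218 without. Plus-strand genes gave 80.7% (78.3 to 83.0) and 73.5% (72.6 to 74.4). A 3' UTR peak was present in 19.6% (17.3 to 22.1) of the minus-strand genes with and 12.2% (11.5 to 12.9) of those without. The genes differed in length as well, with a median of 32739 bases against 24107. With genes split into 3 groups by length, start peaks were present in 71.6% (65.7 to 76.8) against 63.8% (62.0 to 65.5) of the shortest, 86.3% (82.5 to 89.4) against 77.6% (76.0 to 79.2) of the middle and 82.4% (78.5 to 85.8) against 77.7% (76.1 to 79.3) of the longest genes, where the intervals overlapped. On the plus strand these were 71.6% (65.9 to 76.6) against 64.0% (62.2 to 65.7), 82.3% (78.1 to 85.8) against 78.9% (77.3 to 80.3), with overlapping intervals, and 85.2% (81.5 to 88.2) against 78.0% (76.4 to 79.5). These shares describe genes of 1 list, which are not replicates, and the part of gene density was not tested. Neither a start peak nor a peak in the body was present in 50 of the 1033 minus-strand genes with a downstream peak. The number was 930 of the 8218 without, so such genes were the rarer among those with one.

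The gene lists gave the same share on each strand. Of 119 minus-strand list genes 20 (16.8%) had a downstream peak, and of 131 plus-strand ones 22 (16.8%) had the counterpart, beside 11.2% and 11.3% of all genes. Among targets of YAP and TEAD, the effectors of the Hippo pathway, 4 of 12 minus-strand genes had one. F3, tissue factor, had a peak of 1811 bases beginning 74 bases past its end. NUAK2 had peaks of 854 and 1615 bases at 21 and 2706 bases past its RefSeq end. ANKRD1, an ankyrin-repeat cofactor, had one of 740 bases at 52 bases. The remaining gene was LATS2, a kinase that restrains YAP, with one of 623 bases at 1921 bases; it was named after its values were seen. These 4 genes also had start peaks.

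Among luminal breast markers 3 of 8 minus-strand genes had a downstream peak. KRT8, a keratin of simple epithelia, had peaks of 1066 and 563 bases at 282 and 1510 bases past its end. FOXA1, a pioneer factor of luminal cells, had one of 1515 bases at 223 bases, and XBP1, a factor of the unfolded protein response, one of 1296 bases at 1175 bases. KRT8 was also the single epithelial gene of 6. Cytosolic ribosomal proteins gave 3 of 12: RPL23 with 1453 bases at 990 bases, RPS14 with 1136 bases at 249 bases and RPL6 with 235 bases at 2085 bases.

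Growth-factor and MAP kinase genes gave 2 of 15. DUSP6, a phosphatase that dampens ERK signalling, had a peak of 1108 bases at 271 bases, and MAP2K2, the kinase MEK2, had peaks of 659 and 520 bases at 401 and 1842 bases. Subunits of SWI/SNF, the complex of ARID1A, also gave 2 of 15, with short peaks past BCL7B (433 bases at 811 bases) and DPF1 (221 bases at 1103 bases). Among factors of 3'-end processing, CPSF7, a cleavage factor, had a peak of 669 bases at 1002 bases. AP-1 and ATF factors gave 1 of 7 (BATF3, 877 bases at 2569 bases) and mesenchymal markers 1 of 9 (SPARC, a matrix glycoprotein, 684 bases at 1530 bases). Replication-dependent histones gave 0 of 11, endothelial markers 0 of 8 and leukocyte markers 1 of 5 (CD8A, 195 bases at 2404 bases). Each list holds few genes, and these counts set no list apart.

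The labelled cell line was checked against its markers. Start peaks were present at 5 of 5 defining mesenchymal markers, 4 of 5 epithelial, 3 of 4 luminal, 1 of 3 leukocyte and 1 of 3 endothelial ones. The epithelial genes with one were EPCAM, ESRP1, OVOL1 and GRHL2, and CDH1 had none. PGR, FOXA1 and GATA3 had one among the luminal genes, and ESR1 had none. Most epithelial and luminal markers thus had start peaks too, so these counts do not single out the labelled type. The longer lists gave 14 of 17, 13 of 18, 9 of 13, 5 of 12 and 5 of 11, beside 73.8% of all minus-strand and 74.3% of all plus-strand genes.

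The nearest other peak lay at a median of 2956.5 bases from a downstream peak, and within 1000 bases for 508 (25.5%, 23.7 to 27.5). The share was 24.5% (22.4 to 26.6) for the counterparts past plus-strand ends and 22.2% (20.8 to 23.8) for 3' UTR peaks, whose intervals overlapped that of downstream peaks, and 18.2% (17.9 to 18.6) for distal intergenic peaks. In 406 cases (20.4%) that neighbour was another downstream peak, a label that 1.23% of all peaks carry. A neighbour past the same minus-strand end takes this label by its position, unless it is promoter or part of a gene. The 1.23% is therefore no expected value for this share, and no clustering is read from it. Distal intergenic and promoter peaks were the neighbour in 31.4% and 28.2%, near their shares of all peaks, 29.6% and 30.4%. Other labels were not near theirs: intron peaks were the neighbour in 8.09%, against 34.1% of all peaks, and 3' UTR peaks in 7.74%, against 1.83%. The gene on the row had a promoter peak for 72.8% (70.8 to 74.7) of downstream peaks, between 3' UTR peaks at 80.6% (79.2 to 82.0) and distal intergenic peaks at 57.2% (56.7 to 57.6). Of downstream peaks 65.9% lay within 10000 bases of the nearest listed start, near the 62.2% of 3' UTR peaks, against 24.3% of distal intergenic peaks. The least distance to a listed start was 3001 bases among downstream and 3002 among distal intergenic peaks, so neither label was given nearer a start.

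The next gene was in tandem for 627 (52.9%, 50.02 to 55.7) and convergent for 559 (47.1%) of the 1186 downstream peaks that followed a minus-strand protein-coding gene with a next gene. All minus-strand gene ends gave 54.4% tandem (53.3 to 55.5), and the intervals overlapped. The end of the convergent gene lay within 3000 bases of the peak in 112 of the 559. Convergent and tandem peaks had median lengths of 554 and 514 bases. Of the 963 counterparts on the plus strand 59.3% (56.2 to 62.4) were tandem, and 7 of 392 convergent ones had a gene end that close, since those near a minus-strand end carry the downstream label.

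All downstream peaks lay on chromosomes 1 to 22 and X, with 23 on chromosome 18 to 208 on chromosome 1. Their share of a chromosome's peaks went from 0.802% (0.602 to 1.07) on chromosome 13 to 2.23% (1.60 to 3.11) on chromosome 21, with 1.92% (1.43 to 2.57) on chromosome 22. For 19 of 23 chromosomes the interval held the share of the whole list. With the counterparts past plus-strand ends, chromosome 13 remained lowest at 1.64% and chromosomes 21 and 22 highest at 3.55% and 3.40%. Per 100 protein-coding genes the order was another, from 4.25 on chromosome X and 4.76 on chromosome 19 to 15.1 on chromosome 20, and chromosome 13 had 13.6. Copy number, which differs between chromosomes in this aneuploid line, was not measured, and its part in the values per gene cannot be told apart.

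**Figure D5:**
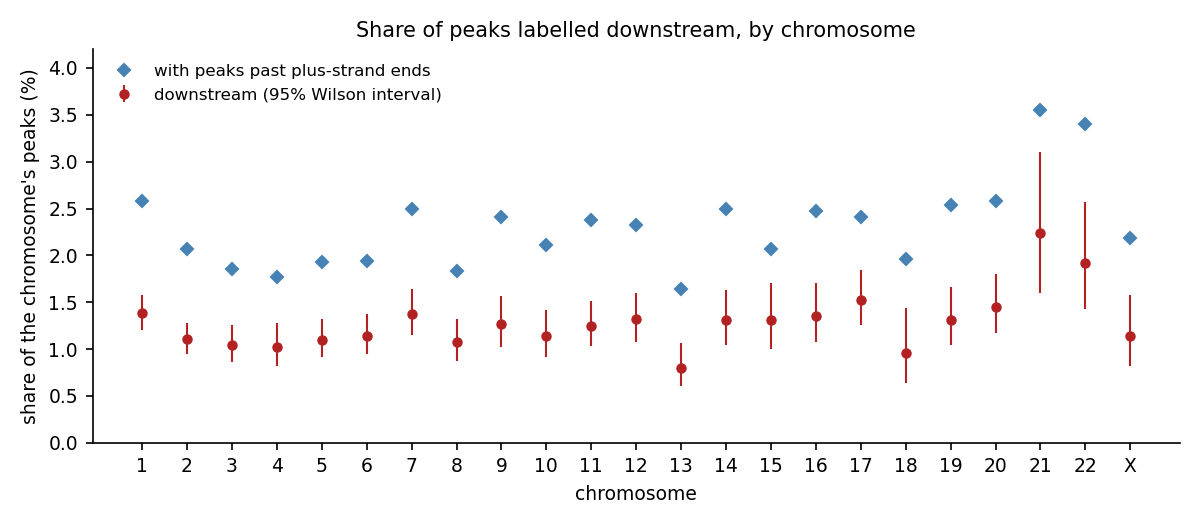
Share of each chromosome's peaks (y axis, percent) that are labelled downstream (red, with 95% Wilson intervals) or are so labelled or lie past plus-strand ends (blue), by chromosome (x axis). Chromosome 13 is lowest (0.802% and 1.64%) and chromosome 21 highest (2.23% and 3.55%) on both counts.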

How the data were processed

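ATAC-seq libraries came from 5 control and 5 ARID1A knockout samples of MDA-MB-231. The submitters' processing notes name Bowtie2 2.3.5.1, MACS2 2.2.6 and the build hg38. For thresholds, merging of libraries and the annotation tool, the sources used here give nothing. The deposited list gives, per the file headers, other quantities than signal: positions, lengths and distances in bases, in 17 columns. Length equalled end minus start plus 1 in all 161934 rows. No count per library is in the list, so the planned comparison of knockout and control was not made.

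A gap was taken from a peak's nearest edge to a transcript or gene end within 3000 bases before it on that strand. Ends came from transcripts named anywhere in the list and from RefSeq genes of GRCh38.p14. RefSeq strand came from the promoter table, or from an Ensembl gene of the list overlapping by at least 0.5 of the union, and gave 18768 of 19974 protein-coding genes (94.0%) a strand. The lookup was tested on simulated intervals. Shares carry Wilson 95% intervals, which cover counting error over peaks, and peaks are not replicates.

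Named genes are those of the 10 longest peaks, the 5 with most peaks (ties by length), the 3 nearest and 3 farthest from the row's transcript, and up to 3 list members per list, none on chromosome 8; some genes that the rule takes are not reported here. They were assigned by minus-strand end in place of the row's gene, a change made after seeing the data. Members and lists were chosen with earlier results of these data known. Computation used Python 3.11.15, numpy 2.4.6, pandas 2.3.3, scipy 1.17.1 and matplotlib 3.10.9.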

Additional observations from a re-analysis of the deposited data

How the results depend on the processing

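No paired analysis was possible because peaks carry no measurement by library, and for the same reason a fit with a replicate block and one leaving out libraries were not run. Of 25 alternatives over 8 results, 9 stayed inside the interval of the reported value, and 16 moved past it (the cause was not tested). Some moves were fixed by the measure. Values per 100 genes are another quantity, a promoter peak within 1000 bases is the narrower case, and adding plus-strand peaks raises a share of the list. The count of 16 is therefore no measure of how far the processing matters. The share of 1.23% was 1.17% by bases and 2.22% with the peaks past plus-strand ends, an alternative added after seeing the data, as were the nearest minus-strand end and the shares labelled downstream past ends of each strand. The median length of 529.5 bases was 567 with the longest peak per listed gene. The class under 1 kb, 33.1%, was 35.4% among peaks of 539 bases or more and 30.7% with the plus-strand peaks. The median distance to the end of the row's transcript was 3353.5 bases over all 1990 peaks. It was 3735.75 from the peak centre and 2703 where that transcript ended before the peak. To the nearest listed end it was 1567, and to the nearest minus-strand one 1635. These last medians cover only peaks with such an end within 3000 bases, which for the minus strand were 1745, so they cannot exceed that limit. Chromosome 21, at 2.23%, had 3.55% with plus-strand peaks and 14.2 per 100 genes. The promoter share of 72.8% was 61.7% within 1000 bases. With RefSeq ends 78.5% of peaks past minus-strand and 1.85% past plus-strand ends were labelled downstream, and 82.9% and 0.278% with either source. The minus-strand share was the higher one in each. Depth per library is unknown, and 80 downstream peaks had no end of either source.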

Other observations

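Peaks past plus-strand genes, which the list labels distal intergenic, stood at 22 of 131 plus-strand genes of the lists, beside 11.3% of all plus-strand genes. The genes below were picked after their values were seen, and no theme is drawn from them. VIM, the mesenchymal intermediate filament vimentin, had a peak of 1394 bases beginning 458 bases past its end. EGFR, the epidermal growth factor receptor, had peaks of 1571 and 1163 bases at 537 and 2225 bases, and MET, another receptor kinase, one of 702 bases at 2379 bases. CCN1, a secreted YAP target, had peaks of 392 and 272 bases at 396 and 2044 bases, and TEAD1, the DNA-binding partner of YAP, one of 1193 bases at 2833 bases. FOS and FOSL2, AP-1 subunits, had peaks of 379 and 1238 bases at 1921 and 1638 bases. B2M, the light chain of MHC class I, had a peak of 1816 bases at 1139 bases. All of these genes had start peaks. CD3E, a T-cell receptor subunit, and ST14, an epithelial protease, had peaks of 840 and 1301 bases at 271 and 2220 bases and no start peak.

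By RefSeq ends, the longest peaks of this kind stood past RAP1GDS1 (2835 bases at 2617 bases), CDKN2C, a cyclin-dependent kinase inhibitor (2718 bases at 1886 bases), and CTNNA1, alpha-catenin (2602 bases at 1131 bases). The RAP1GDS1 peak is not among the 1602 counterparts, which were taken by listed ends and reached 2718 bases at most. Among factors of 3'-end processing 5 of 14 plus-strand genes had a distal intergenic peak past their end, beside 11.3% of all plus-strand genes. They were CPSF2, PABPN1, PAPOLA, RBBP6 and XRN2, with lengths from 310 to 866 bases. Targets of YAP and TEAD gave 3 of 12, growth-factor and MAP kinase genes 3 of 12, mesenchymal markers 2 of 8 and AP-1 and ATF factors 2 of 10. Subunits of SWI/SNF gave 0 of 13, against 2 of 15 on the minus strand, and replication-dependent histones 0 of 10. Each list holds few genes, and these plus-strand counts set no list apart.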
